A study of Homo sapiens with 6 samples.

Results

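The genes described here are the zinc finger genes of human chromosome 19 whose symbol is ZNF followed by digits, measured by RNA sequencing in NOMO-1, an established human acute myeloid leukaemia line of monocytic character. They were compared between 3 unedited libraries (WT) and 3 libraries from cells with a knockout of MSLN, the gene of the surface protein mesothelin (MSLN-KO). The table held 11363 genes, of which 168 met the rule: 32 starting below 18 Mb on the chromosome, 20 from 18 to 26 Mb and 116 from 26 Mb to its end. The genes and the interval borders were chosen with differences between these same libraries known, so in effect selected on the MSLN-KO and WT levels of the genes, and their MSLN-KO to WT values below describe these 6 libraries. Genes are called higher or lower by a limma fit over the whole table, and such a call on a gene chosen this way is not independent evidence.

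Most of these genes encode C2H2 zinc finger proteins, in which tandem fingers each contact a few bases of DNA. Many also carry an amino-terminal KRAB domain, which binds the corepressor TRIM28 (KAP1) and so recruits the histone methyltransferase SETDB1, heterochromatin protein 1 and histone deacetylases to the bound site. The genes stand in tandem clusters that grew by duplication, several of them in primates, and many of the proteins bind and silence transposable elements. The interval from 18 to 26 Mb holds the cluster of the short arm next to the centromere. ZNF91, known to silence SVA elements, and ZNF93, known to silence LINE-1 elements, both lie there.

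Within the 18 to 26 Mb interval, 8 genes had a WT mean under 1 CPM (read counts scaled to the size of the library) and between 6.53 and 23.1 CPM in MSLN-KO, while 9 of the other 12 did not pass the test of difference. The promoters of 3 pairs of genes are printed because they show how alike the sequences are of genes that were near 0 in WT and of neighbours that were not. Neighbours are meant among the listed genes, those of the table, which hold 20 of the 42 zinc finger genes annotated in this interval. The first pair is ZNF93, whose groups overlapped, and the next listed gene along, ZNF486, which had no read in WT. The second is ZNF85, with no read in WT, and the next listed gene along, ZNF430, whose groups overlapped. The third is ZNF91 and ZNF675, adjacent listed genes that were both under 1 CPM in WT. Each run starts 250 bases before the RefSeq gene start and ends 30 bases after it, reads 5′ to 3′ on the gene's strand and comes from RefSeq (GRCh38.p14). Capitals mark CCGGAAG, the core bound by ETS family transcription factors, or its reverse complement CTTCCGG.
ZNF93, chr19:19900696-19900975, plus strand: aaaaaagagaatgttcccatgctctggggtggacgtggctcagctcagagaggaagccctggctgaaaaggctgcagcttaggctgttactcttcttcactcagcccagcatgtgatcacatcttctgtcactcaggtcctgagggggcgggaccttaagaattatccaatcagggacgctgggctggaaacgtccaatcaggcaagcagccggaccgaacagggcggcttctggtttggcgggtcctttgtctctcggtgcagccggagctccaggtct
ZNF486, chr19:20166964-20167243, plus strand: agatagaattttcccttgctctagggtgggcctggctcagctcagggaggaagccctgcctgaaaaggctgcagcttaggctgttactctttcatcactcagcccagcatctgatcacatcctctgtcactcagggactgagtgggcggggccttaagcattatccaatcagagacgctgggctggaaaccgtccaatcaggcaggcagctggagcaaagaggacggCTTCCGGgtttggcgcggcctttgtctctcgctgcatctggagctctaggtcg
ZNF85, chr19:20923001-20923280, plus strand: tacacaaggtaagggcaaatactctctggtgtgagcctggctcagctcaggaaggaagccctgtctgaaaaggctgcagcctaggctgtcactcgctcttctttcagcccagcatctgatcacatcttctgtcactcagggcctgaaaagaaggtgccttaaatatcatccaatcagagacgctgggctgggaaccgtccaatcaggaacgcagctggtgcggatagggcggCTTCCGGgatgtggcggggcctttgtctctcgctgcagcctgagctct
ZNF430, chr19:21020407-21020686, plus strand: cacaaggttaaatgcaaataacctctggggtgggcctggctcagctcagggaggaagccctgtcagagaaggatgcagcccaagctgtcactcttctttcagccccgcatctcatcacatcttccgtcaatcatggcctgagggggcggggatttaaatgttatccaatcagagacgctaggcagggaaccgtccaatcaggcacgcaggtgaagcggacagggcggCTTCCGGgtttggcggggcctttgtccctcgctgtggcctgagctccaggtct
ZNF91, chr19:23395442-23395721, minus strand: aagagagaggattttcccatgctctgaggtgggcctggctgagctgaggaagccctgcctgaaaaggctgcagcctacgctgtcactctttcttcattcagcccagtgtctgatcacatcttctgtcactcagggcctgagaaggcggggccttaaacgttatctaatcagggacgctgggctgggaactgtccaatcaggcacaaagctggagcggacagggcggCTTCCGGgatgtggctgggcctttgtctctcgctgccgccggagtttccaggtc
ZNF675, chr19:23687183-23687462, minus strand: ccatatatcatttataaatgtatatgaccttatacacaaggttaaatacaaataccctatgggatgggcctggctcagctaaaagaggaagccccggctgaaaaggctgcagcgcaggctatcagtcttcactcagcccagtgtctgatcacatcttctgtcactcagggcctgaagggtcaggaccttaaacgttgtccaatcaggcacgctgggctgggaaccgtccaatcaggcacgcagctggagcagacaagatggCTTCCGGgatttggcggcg

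Over the 300-base windows of the RefSeq table, aligned end to end, ZNF93 and ZNF486 were identical at 87.1% of aligned positions and ZNF85 and ZNF430 at 80.8%. The window of ZNF91 matched that of ZNF93 at 83.3% and that of the next listed gene, ZNF675, at 64.9%. The windows of ZNF91 and ZNF675 are offset. The ETS core starts 24 bases before the gene start in ZNF91 and 12 bases after it in ZNF675. The 64.9% thus mixes this offset with sequence difference. The ETS core was present in 5 of the 6 printed promoters, on the strand opposite the gene each time. Its first base lay 23 bases before the start in ZNF486 and in ZNF430 and 12 bases into the transcript in ZNF675. Windows were matched by symbol, and 19 of the 168 genes had none in the table.

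The 6 libraries held between 23665824 and 30804446 reads in the listed genes, and a listed gene had a median of 800 to 1080 reads. MSLN itself was at 153, 123 and 106 CPM in WT and at 45.7, 46.9 and 45.3 CPM in MSLN-KO, so its RNA was lower but not absent (log2 change −1.43 ± 0.10 SE, limma adjusted p = 1.5e-07). The sources used here do not say whether MSLN-KO is 1 clone or a pool, nor whether libraries of a group came from separate cultures, so tests here measure the spread between these libraries. All 8 monocyte and myeloid markers looked for were listed. Their summed level was 15051 to 15649 CPM in WT and 6641 to 7142 CPM in MSLN-KO, a sum that is nearly all LYZ, the lysozyme of monocytes, at 14540 ± 317 against 6081 ± 320 CPM (SD, n = 3). The markers did not move together: 4 were called lower (LYZ, CD14, CSF1R and ITGAM) and 3 higher, FCGR1A 1.74-fold, CD33 1.32-fold and CEBPA 1.32-fold. Of 7 markers of other lineages, PECAM1, which monocytes also express, was listed, at 497 to 533 CPM in WT and 379 to 387 CPM in MSLN-KO. CD3E, MS4A1, HBB, EPCAM and COL1A1 were not among the listed genes. Whether the fall of LYZ and the values of the zinc finger genes are linked was not tested.

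ZNF43 had the largest fitted log2 change of the cluster with 1 CPM added, and ZNF91 the largest with 5 CPM added (2.35, against 2.16 for ZNF43). ZNF43 was at 0, 0 and 0 CPM in WT and at 16.0, 18.1 and 17.7 CPM in MSLN-KO, at least 427-fold higher against a floor of 3 reads over the WT group (0.0405 CPM). ZNF486 had no read in WT and 9.36, 10.3 and 10.1 CPM in MSLN-KO, at least 245-fold higher. Both groups lay far apart for each gene, with every MSLN-KO library above every WT library.

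ZNF675, the gene of a protein known to bind TRAF6, had no read in WT and 7.77, 7.72 and 8.39 CPM in MSLN-KO, at least 197-fold higher. ZNF85 had no read in WT and 7.38, 7.01 and 7.04 CPM in MSLN-KO, at least 176-fold higher. ZNF737 had no read in WT and 7.34, 6.40 and 5.84 CPM in MSLN-KO, at least 161-fold higher. These 5 genes with no read in any WT library were all in the 18 to 26 Mb interval. Of all listed genes, 21 had 0 reads in WT, so the 5 made up 23.8% of them.

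ZNF91, the SVA repressor, was the one of the 8 with reads in every WT library. It was at 0.49, 0.54 and 0.46 CPM in WT, from 12, 14 and 11 reads, and at 22.6, 21.7 and 25.0 CPM in MSLN-KO. The ratio of reads scaled to depth was 46.5, with a 95% interval of 33.6 to 66.2 that covers counting error only. ZNF254 was at 0, 0.15 and 0 CPM in WT, from 4 reads in 1 library, and at 8.51, 8.59 and 7.92 CPM in MSLN-KO, a ratio of 154 (59.8 to 566). ZNF493 was at 0.12, 0 and 0.04 CPM in WT, from 4 reads in all, and at 6.45, 5.95 and 8.26 CPM in MSLN-KO, a ratio of 129 (50.2 to 476). Nothing close to overlap was seen for any of the 3 genes. ZNF493 was singled out after its values were seen.

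Summed over the 8 genes, the level was 0.605 ± 0.096 CPM in WT, against 87.2 ± 2.71 CPM in MSLN-KO (SD, n = 3). In RNA from a mixture of cells, fewer expressing cells and less RNA per cell cannot be told apart. These 8 genes passed the listing of the table through the MSLN-KO libraries alone, since a listed gene needed about 4.90 CPM in 3 libraries, so they could only be listed as higher. Over all listed genes 0.475% had a mean under 1 CPM in WT, 54 genes, of which the 8 were 14.8%. The 54 also held 1 ZNF gene of another chromosome and 3 other genes of chromosome 19. The reverse pattern, a mean under 1 CPM in MSLN-KO, was held by 12 genes of the table and by 0 of the 168. Of the zinc finger genes annotated on the chromosome, 20 of 42 in the 18 to 26 Mb interval were listed, 32 of 51 below it and 116 of 170 beyond it. Those not listed were not analysed here.

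**Figure D1:**
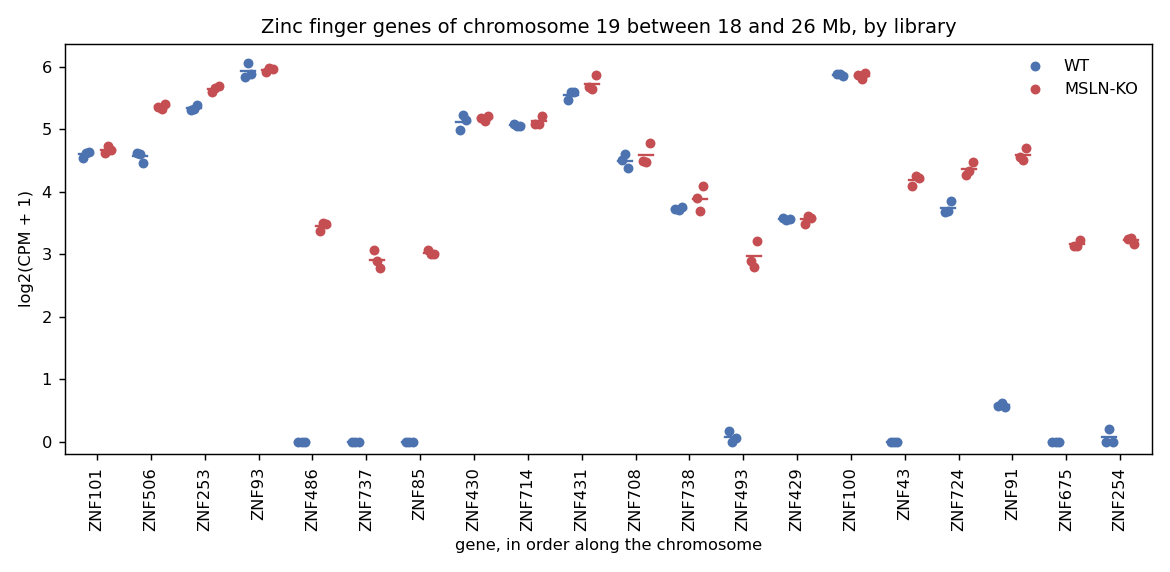
Level of each of the 20 listed zinc finger genes between 18 and 26 Mb, in order along chromosome 19, as log2(CPM + 1). Points are the 6 libraries (3 WT, 3 MSLN-KO) and bars are group means; 8 genes sit at or near 0 in WT and at about 3 or more in MSLN-KO, and the genes between them are at about 10.7 CPM or higher in every WT library.

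The 8 genes were interspersed with genes that WT cells expressed. ZNF43 lay 37.3 kb from ZNF100, which was at 58.4, 57.9 and 56.6 CPM in WT and at 57.3, 55.0 and 58.7 CPM in MSLN-KO. ZNF85 lay 69.9 kb from ZNF430, at 30.6, 36.5 and 34.4 CPM in WT and 35.3, 34.0 and 36.1 CPM in MSLN-KO. ZNF493 lay between ZNF738, 17.8 kb away, and ZNF429, 69.1 kb away. ZNF429 was at 10.9, 10.7 and 10.8 CPM in WT and at 10.1, 11.2 and 11.0 CPM in MSLN-KO. In each of these flanking genes the groups overlapped. The gap from ZNF93 to ZNF486 was 204 kb, and from ZNF486 3 listed genes in a row (ZNF486, ZNF737 and ZNF85) were near 0 in WT. The last 3 listed genes before the centromere (ZNF91, ZNF675 and ZNF254) were also near 0 in WT. Annotated genes that are not listed may lie between them.

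ZNF93, the LINE-1 repressor, was at 56.4, 65.9 and 58.1 CPM in WT and at 59.1, 62.3 and 61.8 CPM in MSLN-KO. The groups overlapped and its log2 change was 0.02 ± 0.07 SE. Among the 12 genes of the interval at 1 CPM or more in WT, 3 were called higher and 0 lower, with a median log2 change of 0.08. ZNF506 was at 23.6, 23.4 and 21.1 CPM in WT and rose to 40.2, 39.2 and 41.4 CPM, 1.78-fold. ZNF724 was at 11.8, 12.0 and 13.5 CPM in WT and rose to 18.2, 19.2 and 21.2 CPM, 1.57-fold. For ZNF724, 44.8% of the exon bases lie in exons of another gene on the same strand, so its reads could be split by the counting. ZNF253 was at 38.5, 39.0 and 41.1 CPM in WT and rose to 47.2, 49.5 and 50.8 CPM, 1.24-fold. In these 3 genes every MSLN-KO library was above every WT library, by a far smaller step than in the 8 genes near 0. ZNF506 and ZNF724, like the flanking genes ZNF100, ZNF430, ZNF429 and ZNF738, were picked after their values were seen.

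Levels of different genes were compared per kilobase of exon. ZNF253 was at 10.9 ± 0.39 CPM per kilobase in WT and ZNF93 at 10.8 ± 0.90 (SD, n = 3), levels that differed by less than their spread. In MSLN-KO the 8 genes were between 0.614 (ZNF493) and 2.33 (ZNF486) CPM per kilobase, and ZNF91 was at 2.22 ± 0.16. ZNF493 was the lowest of all 168 genes on that scale in MSLN-KO. Over the 160 other genes the median in MSLN-KO was 3.83 CPM per kilobase, above each of the 8.

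Over all 168 genes, 66 were called higher in MSLN-KO and 4 lower by limma on log2(CPM + 1), at an adjusted p under 0.05. The background over the whole table was 22.4% called higher and 23.3% called lower. The median log2 change was 0.17 over the 168 genes and 0.01 over all genes, and 141 of the 168 values were above 0. MSLN-KO libraries all lay above WT libraries in 80 of the genes and all below in 6, against 26.6% and 28.1% of all genes. A log2 change of 1 or more was seen in the 8 genes alone, against 1.79% of all genes, and a change of −1 or less in 0, against 1.51%. Leaving the 8 out, 58 of 160 genes were called higher and 4 lower, with a median of 0.16.

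Below 18 Mb, 8 of 32 genes were called higher and 3 lower, with a median log2 change of 0.15. From 18 to 26 Mb, 11 of 20 were called higher and 0 lower, with a median of 0.46 that combines the 8 genes with a median of 3.16 and the 12 with 0.08. With the 5 genes without WT reads set at their lower bounds, the median of the 8 was 7.40 and that of the interval was still 0.46. From 26 Mb on, 47 of 116 were called higher and 1 lower, with a median of 0.19. The summed level of the genes was 780 ± 22.9 CPM in WT, against 863 ± 42.8 CPM in MSLN-KO, below 18 Mb. It was 2438 ± 78.1 against 2776 ± 110.3 CPM beyond 26 Mb (SD, n = 3). With a minimum mean of 5 CPM, 5 of the genes from 18 to 26 Mb were called higher and their median was 0.13, since 6 of the 8 were then not tested. The borders fall in wide gaps between listed genes. ZNF333 is the last listed below 18 Mb and ZNF101 the first above. ZNF254 is the last listed below 26 Mb and ZNF507 the first above. ZNF101 was at 22.2, 23.6 and 24.0 CPM in WT and 23.5, 25.5 and 24.5 CPM in MSLN-KO, where the groups overlapped. ZNF507 rose from 42.6, 47.1 and 40.4 CPM to 47.9, 53.3 and 52.4 CPM, 1.18-fold, but its call was lost (limma adjusted p = 0.050, 0.086 and 0.069) without WT replicate 1, WT replicate 3 or MSLN-KO replicate 2.

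**Figure D2:**
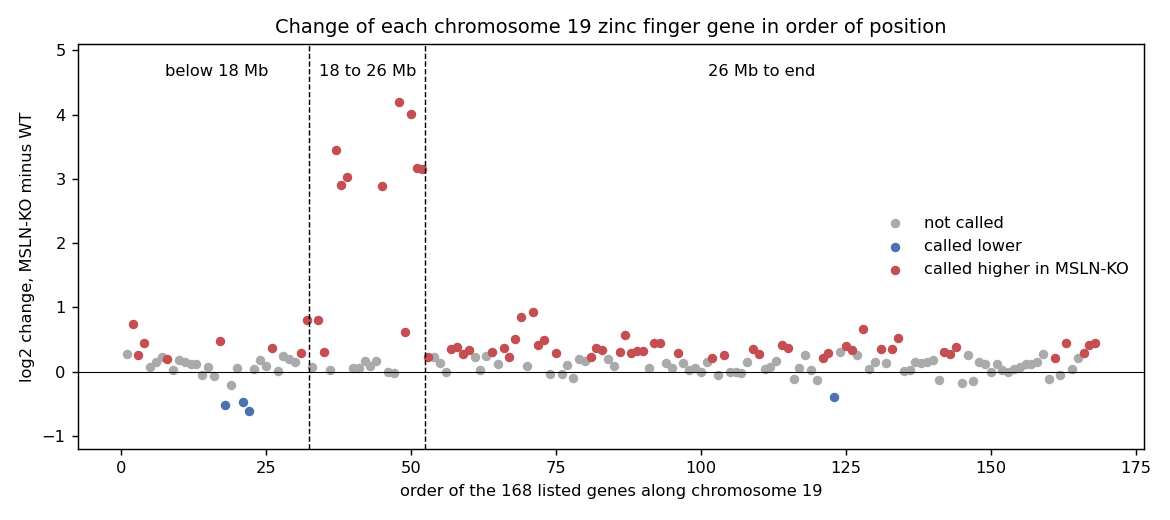
Log2 change (MSLN-KO minus WT, fitted on log2(CPM + 1)) of each of the 168 genes in order along chromosome 19, with dashed lines at the 18 and 26 Mb borders. Red and blue points were called higher and lower by limma, grey points were not called; the 8 points above 2.8 all lie in the middle interval.

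For comparison, 47 of 196 listed ZNF genes of other chromosomes were called higher and 23 lower, with a median of 0.07. Among these 196, 1 had a log2 change of 1 or more, at 4.23, and 1 had a change of −1 or less. Of the 636 listed genes of chromosome 19 that are no ZNF gene, 228 were called higher and 73 lower, with a median of 0.13. The share called higher was thus 39.3% for the zinc finger genes of the chromosome, 35.8% for its other genes and 24.0% for ZNF genes elsewhere; these differences were not tested. Of the 3 shares called lower, 2.38% was that of the zinc finger genes of chromosome 19, 11.5% that of its other genes and 11.7% that of ZNF genes elsewhere. The 38 other listed genes between 18 and 26 Mb all lie before ZNF101, so no listed gene of another kind lies inside the zinc finger cluster. Among them 15 were called higher and 5 lower, with a median of 0.21.

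**Figure D3:**
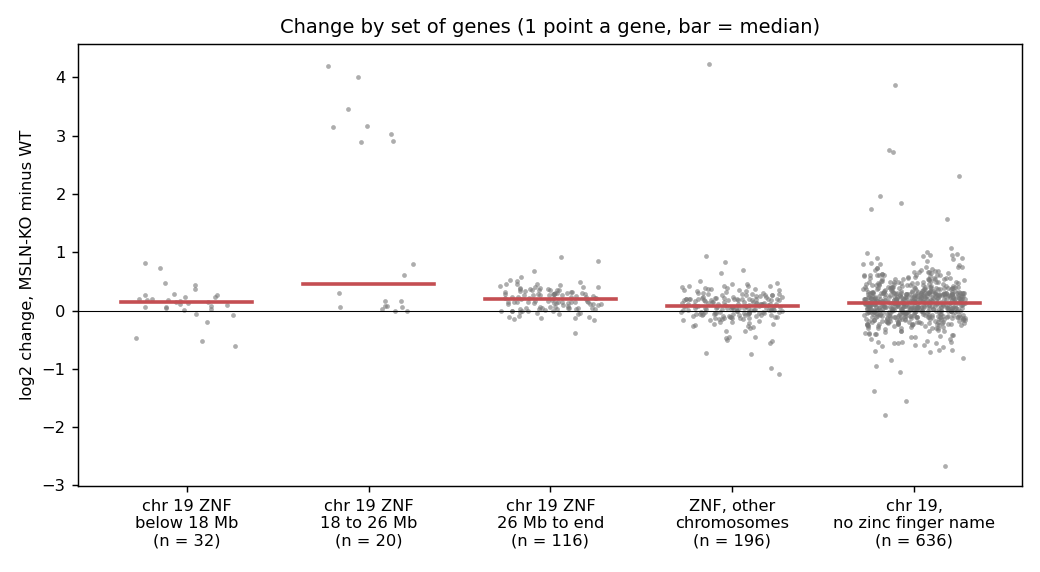
Log2 change (MSLN-KO minus WT) of each gene in 5 sets: the zinc finger genes of chromosome 19 in 3 intervals (n = 32, 20 and 116), ZNF genes of other chromosomes (n = 196) and chromosome 19 genes without a zinc finger name (n = 636). Red bars are medians (0.15, 0.46, 0.19, 0.07 and 0.13), and sideways spread of points has no meaning.

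Below 18 Mb, ZNF333 was at 14.7, 14.6 and 13.6 CPM in WT and rose to 25.5, 24.2 and 27.8 CPM, 1.81-fold. ZNF555 was at 8.40, 10.3 and 9.10 CPM in WT and rose to 15.5, 14.8 and 17.9 CPM, 1.74-fold. ZNF627 was at 25.4, 25.4 and 24.9 CPM in WT and rose to 34.8, 35.1 and 36.8 CPM, 1.41-fold. The groups did not overlap in any of the 3. The next by log2 change on the log2(CPM + 1) scale were ZNF77 (1.42-fold from 6.38 CPM), ZNF44 (1.34-fold from 5.36 CPM) and ZNF791 (1.23-fold from 31.9 CPM). Without WT replicate 3 the call of ZNF44 was lost (limma adjusted p = 0.051). ZNF121, whose protein is known to bind MYC, and ZNF700 had the highest WT levels per kilobase of the interval, 18.9 ± 0.29 and 12.1 ± 0.31 (SD, n = 3). Neither was called, with log2 changes of 0.12 ± 0.06 and 0.05 ± 0.07 SE.

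The genes that fell below 18 Mb were near neighbours. ZNF823, ZNF439 and ZNF69 all start between 11721265 and 11887784 on chromosome 19 (GRCh38). ZNF69 was at 14.5, 16.1 and 14.2 CPM in WT and fell to 8.27, 9.15 and 11.1 CPM, 1.57-fold lower. ZNF823 was at 7.51, 9.36 and 8.93 CPM in WT and fell to 5.17, 5.76 and 6.13 CPM, 1.51-fold lower. ZNF439 was at 6.94, 8.55 and 8.17 CPM in WT and fell to 5.67, 4.48 and 6.19 CPM, 1.45-fold lower. Each gene had all MSLN-KO libraries below all WT libraries. ZNF440 and ZNF441, between ZNF823 and ZNF439, were not called, with log2 changes of 0.06 and −0.20. In the same block, ZNF627 at one end and ZNF791 at the other rose.

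Beyond 26 Mb, ZNF569 was at 5.79, 5.84 and 6.19 CPM in WT and rose to 11.5, 11.4 and 13.8 CPM, 2.06-fold. ZNF875, also called HKR1, was at 9.26, 9.13 and 8.59 CPM in WT and rose to 18.6, 14.4 and 18.6 CPM, 1.91-fold. ZNF581 was at 13.6, 12.8 and 12.2 CPM in WT and rose to 21.1, 22.8 and 19.3 CPM, 1.64-fold. All MSLN-KO libraries lay above all WT libraries in these genes. For ZNF581, 23.4% of the exon bases are shared with another gene on the same strand. ZNF225 rose 1.55-fold from 7.33 CPM, ZNF460 rose 1.45-fold from 44.9 CPM and ZNF383 rose 1.45-fold from 15.0 CPM.

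ZNF146, which encodes a protein made almost wholly of zinc fingers and lacking KRAB, had the highest level per kilobase of all 168 genes, 31.0 ± 1.47 CPM per kilobase in WT and 39.5 ± 0.81 in MSLN-KO (SD, n = 3). In CPM it was at 125, 135 and 125 in WT and rose to 166, 160 and 165, 1.27-fold, with no overlap. ZNF460 was the next highest of the interval per kilobase, at 12.8 ± 1.07 in WT. ZNF813 was the one gene called lower beyond 26 Mb. It was at 24.6, 27.1 and 25.4 CPM in WT and fell to 20.8, 16.6 and 21.1 CPM, 1.32-fold lower.

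**Figure D4:**
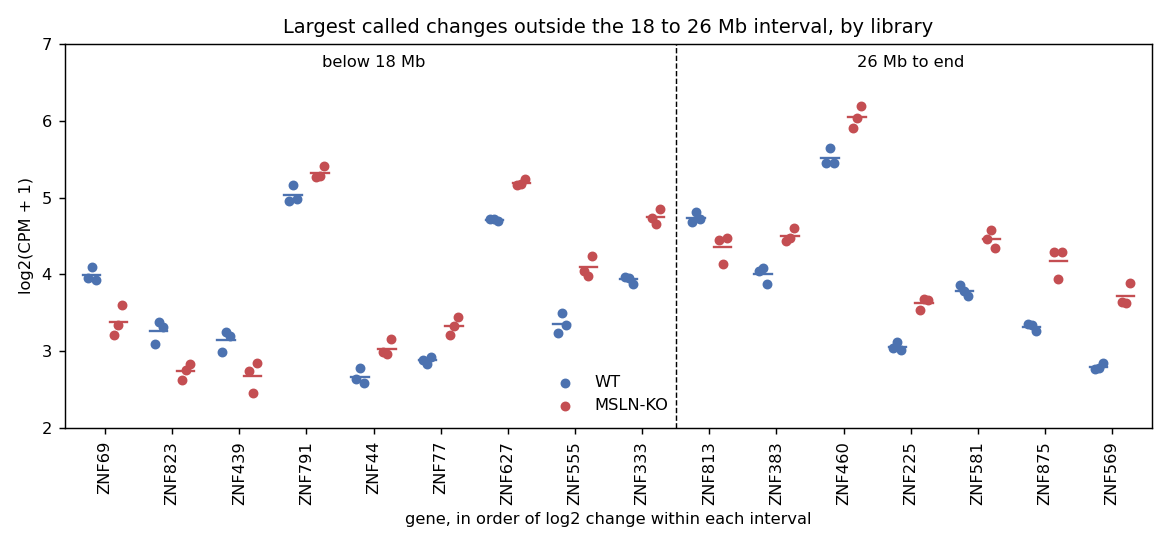
Level as log2(CPM + 1) in each of the 6 libraries for the genes with the largest called differences below 18 Mb (9 genes) and from 26 Mb on (7 genes), ordered by log2 change within each interval. Points are libraries and bars group means; the groups do not overlap in any of the genes, and the axis starts at 2.

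Split at gaps over 1 Mb, a division made after the values were seen, the genes formed 16 blocks. For their counts, the background over the whole table was 22.4% called higher and 23.3% called lower. The block from 36.2 to 37.5 Mb held 16 genes, from ZNF146 to ZNF570, of which 11 were called higher and 0 lower, and all 16 log2 changes were above 0, with a median of 0.33. ZNF875 and ZNF569 belong to it, as does ZNF850, which was at a mean of 64.9 CPM in WT, against 65.9 CPM in MSLN-KO. The block from 43.6 to 44.5 Mb held 14 genes, of which 8 were called higher and 0 lower, with a median of 0.26. It includes ZNF224, whose protein is known to bind the Wilms tumour protein, and which rose 1.26-fold from 29.8 CPM. The blocks of 31 genes from 51.6 to 53.5 Mb and of 45 genes from 55.6 to 58.5 Mb had medians of 0.13 and 0.15, with 10 and 14 genes called higher. The block with ZNF69 held 15 genes, of which 3 were called higher and 3 lower, shares near the background, with a median of 0.09. ZNF850 and ZNF224 were picked after their values were seen. No block had more genes called lower than higher.

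By protein, 132 of the 166 coding genes matched a KRAB pattern in a translated GENCODE v29 transcript and 34 did not. Of those with the pattern, 47 were called higher and 4 lower, with a median log2 change of 0.15, and of those without it 19 were called higher and 0 lower, with a median of 0.28. The difference was not tested, and over all genes 22.4% were called higher and 23.3% lower. The pattern asked for fixed residues at several positions of the domain. A KRAB domain with other residues there is missed, so a gene without a match may still encode KRAB. Position differs too: 30 of the 34 genes without the pattern lie beyond 26 Mb, against 84 of the 132 with it. Many of those without a match, ZNF224 among them, stand in the block from 43.6 to 44.5 Mb, where 8 of 14 genes were called higher. Of the 8 genes near 0 in WT, 7 matched the pattern. ZNF43 did not match it, which does not show that ZNF43 lacks KRAB. The coding genes held a median of 12 fingers, from 0 to 31, and ZNF91 had the most of all, 31. The 8 genes held 9 to 31 fingers, with a median of 14, and the 12 others of the cluster a median of 11.5.

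Near-identical copies can share reads, since a read that fits several genes may be dropped or misplaced. Over the 168 genes a median of 1.52% of 50-base runs of the transcripts also occur in another gene, and over 10% do in 12 genes. In the 18 to 26 Mb interval the share was 1.95% to 8.03%, and for the 8 genes near 0 its median was 2.90%, against 3.74% for the 12 others. ZNF443 and ZNF417 had the highest shares, 32.6% and 31.0%, and neither was called. Of the 168 genes, 23 share over 10% of their exon bases with another gene on the same strand and 15 with one on the other strand; none of the 8 near 0 in WT does.

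The promoters of the 18 to 26 Mb cluster held few CG dinucleotides. Their median was 10 CG in the 300 bases, from 8 to 18, over 17 genes, against 19 below 18 Mb, 23 beyond 26 Mb and 27 over the promoters of 8985 listed genes. The 8 genes near 0 in WT had 8 to 12 CG, with a median of 10, and the 9 others of the cluster with a window had 9 to 18, with the same median of 10. CG number in the window thus did not separate the genes near 0 in WT from their neighbours. Pairwise identity of the windows was also alike: a median of 77.2% over the 28 pairs of genes near 0 in WT and 76.4% over the 72 pairs of one such gene with one expressed gene. Over the 36 pairs of expressed genes the median was 57.4%, a value pulled down by pairs with ZNF101, ZNF708 or ZNF429. Those pairs ran from 44% to 58.7%, apart from ZNF708 with ZNF429 at 70.1%. Pairs among the other expressed genes with a window ran from 75.6% to 91%.

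The ETS core CCGGAAG, searched on both strands, was in the windows of 8 of the 8 genes near 0 in WT and 5 of the 9 others of the cluster. It was in 76.5% of the windows of the cluster, 16.1% of those below 18 Mb and 54.5% of those beyond 26 Mb. By comparison, 21.5% of the windows of listed genes and 10.7% of all 27305 windows of the same length held it. ZNF93, printed above, lacks it, and ZNF430 and ZNF100, whose groups overlapped, hold it. ATGGCGG (the YY1 core) was in 2 of the 17 windows, the NRF1 motif in 0 and TATAAA (the TATA box) in 3. In 3 of the 17 genes, ZNF43 and ZNF254 among them, the RefSeq start lies over 100 bases from the start of the GENCODE gene, so another start may be the one in use. A match here is a match of letters and shows no binding.

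**Figure D5:**
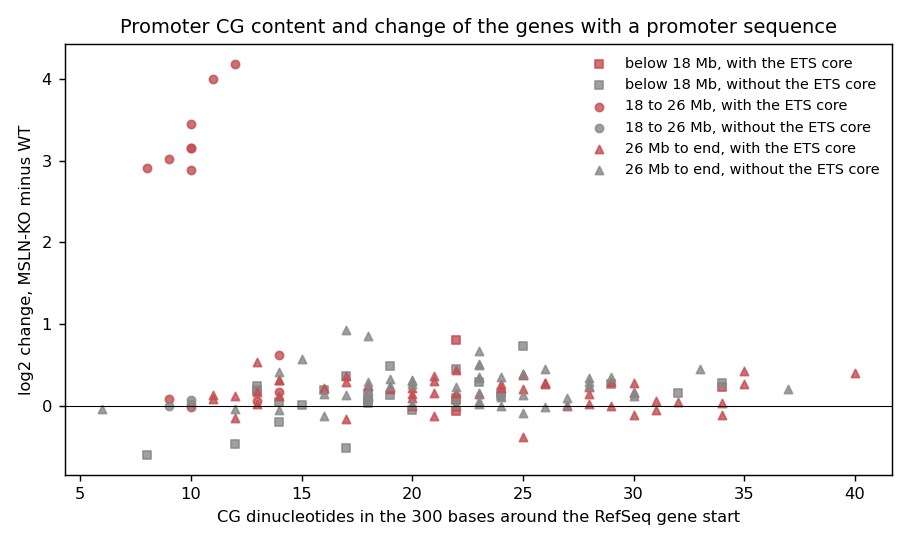
Number of CG dinucleotides in the 300 bases around the RefSeq start against the log2 change (MSLN-KO minus WT) for the genes with a window. Squares, circles and triangles are genes below 18 Mb, from 18 to 26 Mb and beyond; red symbols hold the ETS core, and the circles near 10 CG include both the 8 genes above 2.8 and genes near 0.

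Among genes that serve KRAB proteins, all 32 corepressor and heterochromatin genes looked for were listed, and 4 were called higher and 5 lower, against 22.4% and 23.3% of all genes, with a median log2 change of 0.02. TRIM28, the corepressor bound by KRAB, was at 273, 227 and 258 CPM in WT and 286, 292 and 232 CPM in MSLN-KO, where the groups overlapped. SETDB1 was at 99.4, 103 and 98.8 CPM in WT and 99.6, 100.3 and 98.3 CPM in MSLN-KO, also overlapping. ATF7IP, the partner of SETDB1, rose from 101 ± 12.5 to 145 ± 9.94 CPM (SD, n = 3; limma adjusted p = 0.00017). KDM4C, a demethylase of the mark that SETDB1 sets, rose 1.17-fold (limma adjusted p = 0.017). RBBP7 and CHD3, subunits of the NuRD deacetylase complex, fell 1.39-fold and 1.36-fold (limma adjusted p = 9.4e-06 and 1.7e-05). Other subunits of that complex differed in direction or were not called: MTA1 and HDAC2 rose 1.17-fold and 1.12-fold (limma adjusted p = 0.021 and 0.027), HDAC1 fell 1.19-fold (limma adjusted p = 0.0043), and CHD4, MTA2 and RBBP4 were not called.

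Of 20 genes of DNA methylation, 19 were listed, 3 called higher and 4 lower, against the same background of 22.4% and 23.3%, with a median log2 change of −0.04. TET2, an enzyme that oxidises methylcytosine, fell from 283 ± 27.9 to 169 ± 6.82 CPM, and TET1 fell from 29.3 ± 4.08 to 19.9 ± 1.63 CPM (SD, n = 3; limma adjusted p = 2.3e-06 and 0.00069). UHRF2 rose from 41.5 ± 1.56 to 57.9 ± 5.49 CPM (SD, n = 3; limma adjusted p = 0.00018). DNMT1, the maintenance methyltransferase, was at 220, 212 and 219 CPM in WT and 238, 246 and 221 CPM in MSLN-KO and was not called. Whether any of these genes bears on the zinc finger genes was not tested. Of 9 other zinc finger names on chromosome 19, 5 were called higher and 0 lower, among them ZFP82 (1.74-fold) and ZFP36 (1.28-fold), whose protein binds RNA through fingers of another type.

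The genes whose pattern over the 6 libraries was most like that of ZNF43 were ZNF486, ZNF675 and ZNF85, by Pearson correlation of log2(CPM + 1) within the 168 genes. For ZNF486 they were ZNF43, ZNF675 and ZNF85, and for ZNF91 they were ZNF675, ZNF85 and ZNF486. All 9 correlations were above 0.999, as follows for genes near 0 in 3 libraries and well above it in the other 3, and the libraries are shared. The list names no member from outside the 18 to 26 Mb interval.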

How the data were processed

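RNA of NOMO-1 cells (ribosomal RNA depleted, stranded total RNA kit, per the labels' protocols) was measured in 3 WT and 3 MSLN-KO libraries. The submitters' processing notes name STAR, featureCounts, edgeR and GRCh38/hg38; neither the annotation release nor the strand setting is stated there or in the labels. The authors deposited 1 table of CPM (read counts scaled to library size, normalised by TMM as its name states) for 11363 genes. In each column every value was a whole multiple of 1 read's worth within 0.01, from which reads per gene were derived to give intervals and floors (95%; 3 reads over a group; counting error only). The table holds few low values, so these reads are inferred rather than established, and the read numbers, floors, lower bounds and intervals rest on that inference. Symbols matched 11354 IDs, and GENCODE v29 positions 11314. The smallest third-highest value of a listed gene was 4.90 CPM, and its mean was at least 2.85 CPM, so a minimum mean of 0.5 CPM removed 0 genes.

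Differences were fitted on log2(CPM + 1) over the whole table with limma 3.58.1 (R 4.3.3; lmFit, eBayes with trend, no covariate), adjusted by Benjamini-Hochberg and called at 0.05, two-sided. On this scale the changes of low genes are understated. The procedure was also run on simulated counts, with far fewer changed genes than were called here and no gene absent from a group. That run therefore does not cover the genes near 0 in WT. Zinc fingers and KRAB patterns were searched in translated coding sequences and promoters taken by symbol from RefSeq. The members and lists were chosen with earlier results of these data known. The text names genes with 3 or fewer reads in a group, the 6 largest rises and falls per interval that were called without overlap, the 2 highest per kilobase and the genes at the borders, apart from those said to be chosen later. Symbols with a hyphen (4 genes of chromosome 19) were left out, and 2 pseudogenes kept.

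Within each group the libraries were distinct, with a chi-square statistic over genes of 2.71 to 14.8 for each degree of freedom. Deviations from the group mean had correlations over genes of 0.19, −0.17 and −0.09 between same-numbered libraries, which differ in sign. Alternatives were another pseudocount, filter or scaling, no trend, the replicate block and leaving out each library.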

Additional observations from a re-analysis of the deposited data

How the results depend on the processing

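No called gene and no median changed sign under the alternatives and library omissions run for it. ZNF93 and ZNF700, which were not called, did change sign when 1 library was left out, with log2 changes of −0.02 to 0.09 and −0.01 to 0.10. With a minimum mean of 5 CPM, which leaves 6 of the 8 genes near 0 in WT out of the test, 5 genes of the 18 to 26 Mb interval were called higher and their median log2 change was 0.13. The 11 genes called higher there kept the call under every alternative that tested them, as did 31 of 47 called higher beyond 26 Mb, 5 of 8 below 18 Mb and all 4 called lower. Fitted log2 changes of genes with no WT read depend on the pseudocount: ZNF43 was at 5.15 with 0.5 CPM added and at 2.16 with 5 CPM added.

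Leaving out 1 library in turn gave 55 to 71 of the 168 genes called higher and 4 to 5 lower, and a median log2 change of 0.14 to 0.20. Below 18 Mb it gave 6 to 9 higher, 3 to 4 lower and a median of 0.11 to 0.16, lowest without WT replicate 1 (0.111). From 18 to 26 Mb it gave 11 to 12 higher, 0 lower and a median of 0.42 to 0.50. Beyond 26 Mb it gave 38 to 52 higher, 1 to 2 lower and a median of 0.15 to 0.20. Over all genes 4092 to 5114 were called.

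The labels do not say whether libraries of the same replicate number were paired. A fit with the replicate block called 67 genes higher and 4 lower, against 66 and 4 without it, and 4946 genes in all against 5197. Rescaling the columns to one total moved the median of all genes from 0.01 to 0.04 and called 80 of the 168 genes higher. Count tests (edgeR, DESeq2) listed among the alternatives were not run, because the table holds too few low values to establish whole reads as recovered. Genes under the listing level were not analysed here, and reads of genes near 0 in WT do not separate a silent gene from one below 3 reads over the group.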
